A study of Rattus norvegicus with 12 samples.

Results

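The chemokines and their receptors were followed through hematomas of rat femoral defects and through the femur itself. Members were the genes whose symbol begins with Ccl, Cxcl, Cx3cl, Xcl, Ccr, Cxcr, Cx3cr, Xcr or Ackr followed by a digit, with Ccrl genes and the Ccr4-Not complex left out. They numbered 53 of 17379 quantified features, 33 of them ligands and 20 receptors. The symbols Ackr1, Ackr4, Ccr8 and Cxcl3 meet the same rule in the annotation and were not analysed here.

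Chemokines are small secreted proteins that bind seven-pass receptors on leukocytes and other cells and set the direction in which those cells move. CC chemokines such as Ccl2 draw monocytes, CXC chemokines with the amino acids Glu-Leu-Arg before the first cysteine pair draw neutrophils through Cxcr2, and the interferon-induced Cxcl9, Cxcl10 and Cxcl11 draw activated lymphocytes through Cxcr3. Cxcl12 is made by bone marrow stromal cells and holds Cxcr4-bearing blood cell precursors in the marrow. Atypical receptors of the Ackr kind bind chemokines and clear them.

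RNA was sequenced from 12 libraries of male SAS Fischer rats weighing 200 to 225 g, 3 in each of 4 groups. The hematomas filled femoral defects of 0.5 mm in the normal group, 1.5 mm in the delayed group and 5.0 mm in the nonunion group, and the reference, preOP, was the piece of untreated femur that surgery took out to make the 5.0 mm defects. No genetic change or drug is given for any group, and the labels used here give neither the animals' age nor the day on which the hematoma was collected. They do not say whether libraries came from separate animals, so p-values measure the spread between these libraries, which may be technical. Femur pieces and nonunion hematomas may come from the same rats, and the main tests treated them as unpaired. The comparisons ask how the chemokine transcripts of a healing or non-healing hematoma differ from each other and from bone and marrow at surgery. Since each sample is a whole tissue, fewer cells of a type and less RNA per cell cannot be told apart.

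Libraries held 16808993 to 24325162 estimated reads, and members took 0.0351% to 0.369% of them. The library nonunion 2 stood apart, where ribosomal RNA took 72.2% of the reads and no more than 1.75% in any other library. Levels are given as CPM, counts per 1e6 reads after scaling with TMM factors. The sum of 4 adipocyte markers was 8156 CPM in nonunion 2 and no higher than 582 CPM in the rest. In delayed 2, the sum of 4 skeletal muscle markers was 25494 CPM, and the remaining hematomas did not exceed 4367 CPM. The normal files were written differently from all others. Only 16.8% to 18.1% of their read numbers carried a decimal point, where the remaining files had 100%, and effective lengths were shorter than full lengths by a median of 157 to 192 bases in place of 194 to 255. File origin and group therefore cannot be told apart wherever normal is compared. Osteoblast and osteocyte markers summed to 446 to 562 CPM in the femur, 1615 to 1958 CPM in normal and 19.1 to 55.7 CPM in delayed and nonunion. Not every gene of the list followed the sum. Bglap went the other way in normal, at 68.8 to 84.7 CPM beside 190 to 259 CPM in the femur. Runx2 was at 7.55 to 49.4 CPM in delayed and nonunion and overlapped the femur's 41.8 to 50.2 CPM. Erythroid markers summed to at least 107958 CPM in the femur and at most 19440 CPM in hematomas.

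Of the 53 members, 27 ligands and 16 receptors reached a mean of 1 CPM in at least 1 group. The others were the ligands Ccl1, Ccl19, Ccl22, Ccl25, Ccl26 and Ccl27 and the receptors Ccr4, Ccr10, Cxcr1 and Cxcr6, none of which passed 1.85 CPM in any library. The fit of all 12 libraries tested 28 ligands and 16 receptors, and the fit of the 9 hematomas tested 26 and 16. In the heat map of levels, the columns of the 9 hematomas lie apart from the 3 femur columns at Cxcl12, Ccl7 and Ccr1l1, among others.

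**Figure D1:**
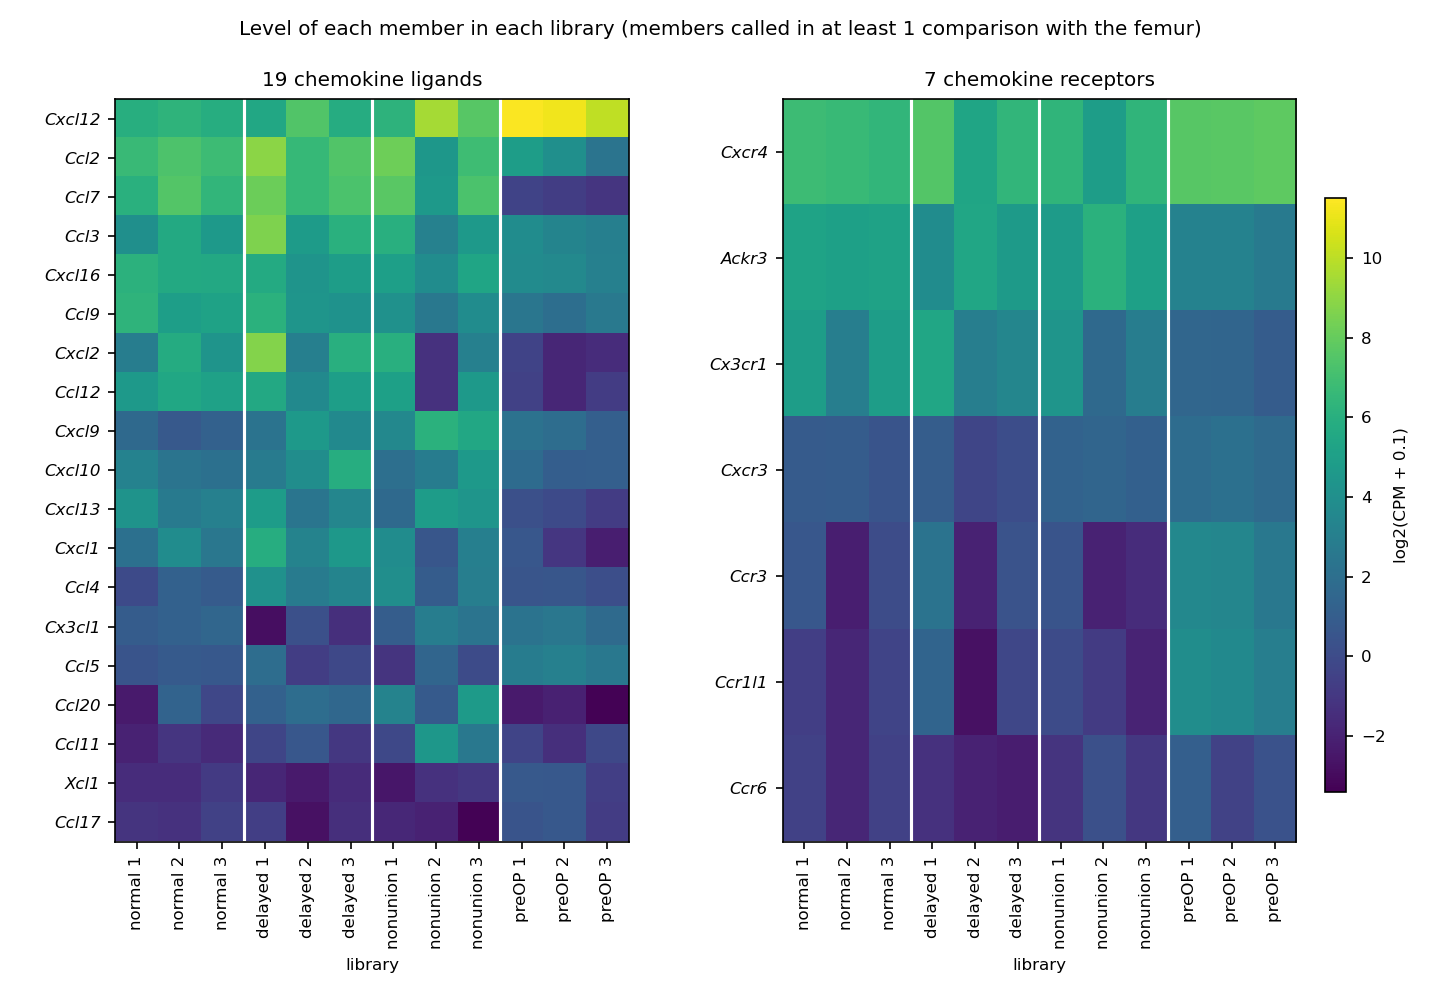
Level of each of the 26 members called in at least 1 comparison with the femur, as log2(CPM + 0.1), by library, with 19 ligands at the left and 7 receptors at the right, each sorted by mean. White lines divide the 4 groups. Cxcl12 is brightest in the 3 femur libraries, at 1094 to 2724 CPM, and Ccl7 is dark there, at 0.37 to 0.64 CPM.

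Against the femur, more ligands were called higher than lower. Features were called at an adjusted p below 0.05 in edgeR's quasi-likelihood test with Benjamini-Hochberg adjustment over all features tested. In normal, 12 of 28 tested ligands were called, 9 higher and 3 lower. This is 42.9% of them beside 42.6% of all features (20.5% higher, 22.1% lower), which is the background rate. In delayed, 16 ligands were called, 13 higher and 3 lower, or 57.1% beside 28.2% of all features (12.6% higher, 15.6% lower). In nonunion, 15 were called, 11 higher and 4 lower, or 53.6% beside 28.4% (13.5% higher, 14.9% lower). Of 16 receptors, 5 were called in normal (2 higher, 3 lower), 5 in delayed (2 higher, 3 lower) and 4 in nonunion (1 higher, 3 lower), which is 31.2%, 31.2% and 25% of those tested and near the background in the latter comparisons. The 3 of 16 called lower each time stood beside 22.1%, 15.6% and 14.9% of all features, so they too were near the background. The median log2 fold change of ligands was 0.32 in normal, 1.32 in delayed and 1.46 in nonunion, that of receptors was -1.02, -0.63 and -0.27, and that of all features was -0.09, -0.03 and -0.00. The 3 comparisons share the same femur libraries and so do not stand for separate evidence. Without delayed 2 and nonunion 2, the members called numbered 23, 27 and 27 in place of 17, 21 and 19. Calls over all features rose as well, to 7560, 5414 and 5425 in place of 5466, 3622 and 3648. Leaving out 1 library at a time gave 9 to 14, 13 to 20 and 8 to 20 calls, with the fewest in normal without normal 2 or preOP 2, and in delayed and nonunion without preOP 2. Over all features these fits gave 3952 to 4846, 2292 to 4033 and 2338 to 4221 calls.

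The ligands that attract monocytes through Ccr2 were far higher in hematoma. Ccl7, which binds several CC receptors, stood at 67.2, 180 and 86.1 CPM in normal, 281, 94.5 and 158 CPM in delayed, 207, 23.7 and 155 CPM in nonunion, and 0.64, 0.52 and 0.37 CPM in the femur. Every hematoma was above every femur piece, and nonunion 2 was the lowest hematoma. The log2 fold change against the femur was 7.74 (SE 0.91) in normal, 8.42 (SE 0.93) in delayed and 7.95 (SE 0.92) in nonunion, with edgeR adjusted p of 0.00018, 0.00021 and 0.00027, and each call held with any 1 library left out.

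Ccl2, the main monocyte attractant, was present in the femur at 29.5, 16.1 and 4.93 CPM. It reached 102, 163 and 111 CPM in normal, 472, 95.3 and 175 CPM in delayed and 298, 22.4 and 118 CPM in nonunion. All hematomas but nonunion 2 lay above all femur pieces, and delayed 1 was highest. Ccl2 rose by 2.89 (SE 0.91, edgeR adjusted p = 0.025) in normal, 3.88 (SE 0.95, adjusted p = 0.012) in delayed and 3.12 (SE 0.92, adjusted p = 0.027) in nonunion on the log2 scale. With 1 library left out, its call in normal ended without normal 2, preOP 2 or preOP 3 (log2 fold changes of 2.46 to 3.67 over the fits, adjusted p up to 0.080), and that in nonunion without nonunion 1, preOP 2 or preOP 3 (2.19 to 3.91, adjusted p up to 0.095).

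Ccl12, a Ccr2 ligand in mice, was close to absent from the femur at 0.59, 0.19 and 0.49 CPM. It was at 24, 44.9 and 34.7 CPM in normal, 47.4, 12.5 and 31.4 CPM in delayed, and 33.8, 0.31 and 24.8 CPM in nonunion. Nonunion 2, with a floor of 0.46 CPM for 3 reads, was the one hematoma within the range of the femur. Ccl12 rose by 6.34 (SE 1.22), 6.15 (SE 1.21) and 5.54 (SE 1.18) on the log2 scale, with edgeR adjusted p of 0.0023, 0.0038 and 0.0060, and the calls held with any 1 library left out, while limma-voom did not call it in nonunion (adjusted p = 0.060). The 10 macrophage markers summed to 1085 to 2342 CPM in hematomas and 532 to 888 CPM in the femur. Of the 9 tested, edgeR called Cd68, Csf1r, Mrc1 and Msr1 higher in each group and Adgre1 in delayed and nonunion. The others tested were not called. C1qa, for one, was at 143 to 189 CPM in the femur and 67.8 to 132 CPM in every hematoma but nonunion 2, at 338 CPM, and Marco was without reads in normal and in delayed. Their part in the result was not tested.

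The neutrophil attractants Cxcl1 and Cxcl2, both ligands of Cxcr2, were also higher in hematoma and spread widely between libraries. Cxcl2 was at 7.52, 54.1 and 19.4 CPM in normal, 428, 8.15 and 64.3 CPM in delayed, 62.7, 0.31 and 8.44 CPM in nonunion and 0.64, 0.19 and 0.25 CPM in the femur. Delayed 1 was highest, and nonunion 2 fell within the femur's range. The log2 fold change was 6.20 (SE 1.85, edgeR adjusted p = 0.020) in normal, 8.82 (SE 2.03, adjusted p = 0.0086) in delayed and 6.03 (SE 1.84, adjusted p = 0.031) in nonunion. The call in normal ended without normal 2 or any 1 femur library (adjusted p up to 0.070, fold changes of 5.20 to 7.02), and that in nonunion ended without nonunion 1 or any 1 femur library (adjusted p up to 0.117, fold changes of 3.80 to 6.87). With limma-voom none of the 3 Cxcl2 differences was called (adjusted p of 0.119, 0.065 and 0.266).

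Cxcl1 followed at lower levels, with 4.21, 14.1 and 5.59 CPM in normal, 59.5, 9.49 and 23.1 CPM in delayed, 14.4, 1.39 and 8.07 CPM in nonunion and 1.48, 0.38 and 0.12 CPM in the femur. Only nonunion 2 overlapped the femur. It rose by 3.56 (SE 1.05, edgeR adjusted p = 0.019), 5.51 (SE 1.13, adjusted p = 0.0047) and 3.58 (SE 1.05, adjusted p = 0.026) on the log2 scale. In delayed the call held with any 1 library left out. In normal it ended without normal 2, preOP 2 or preOP 3 (adjusted p up to 0.067, fold changes of 2.86 to 5.00), and in nonunion without nonunion 1, preOP 2 or preOP 3 (adjusted p up to 0.090, fold changes of 2.98 to 5.04). Cxcl6, of the same class, was at 1.18 to 2.28 CPM in the femur, 0.92 to 2.52 in normal, 3.55 to 4.02 in delayed and 0.15 to 6.70 in nonunion and was not called by edgeR with all libraries. EdgeR with the compared groups alone called Cxcl6 higher in delayed (1.29, adjusted p = 0.027). Without nonunion 2, edgeR called it higher in nonunion (1.96, adjusted p = 0.011). Salmon can divide reads between similar transcripts such as Cxcl1 and Cxcl2, so their split is uncertain. Mature neutrophil markers, of which 8 of 9 listed were measured, had a sum of 7709 to 10070 CPM in the femur, 1457 to 9315 in normal, 102 to 1239 in delayed and 69.2 to 731 in nonunion. S100a8 and S100a9 made up most of the sum in the femur and in normal. In edgeR 4 of the 8 were called lower in delayed and 5 in nonunion. In normal edgeR called 0, with 0 at an unadjusted p under 0.05, DESeq2 called 0 and limma-voom 1. Other members overlapped the femur. Fcgr3a was at 3.70 to 39.5 CPM in hematomas and 9.31 to 19.1 CPM in the femur, and Csf3r at 8.94 to 148 CPM and 93.1 to 132 CPM. The part of these cells in the Cxcl1 and Cxcl2 values was not tested.

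The promoters of some ligands that stood out are shown because members of this family are known targets of NF-kappa B, interferon and AP-1 signals. RefSeq sequences (build GRCr8) from 250 bases before to 50 bases after the start were found for 42 of 53 members. Ccl2 was not among these. The promoters of Ccl12, Ccl20, Cxcl13, Cxcl16 and Xcl1, also called in each comparison with the femur, were found and are not shown. Capitals mark matches, on either strand and overlapping ones included, to kappa B (3 G, any 5 bases, 2 C), TTCNNNGAA (gamma interferon activated site) or TGACTCA (AP-1).
Cxcl1, chr14:17479272-17479571, minus strand: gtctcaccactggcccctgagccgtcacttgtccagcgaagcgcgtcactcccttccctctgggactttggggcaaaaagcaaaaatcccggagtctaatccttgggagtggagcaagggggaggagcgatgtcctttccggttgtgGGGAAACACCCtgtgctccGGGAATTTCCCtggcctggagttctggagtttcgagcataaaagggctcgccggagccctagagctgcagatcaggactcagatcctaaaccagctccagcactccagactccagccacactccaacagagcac
Cxcl2, chr14:17467206-17467505, minus strand: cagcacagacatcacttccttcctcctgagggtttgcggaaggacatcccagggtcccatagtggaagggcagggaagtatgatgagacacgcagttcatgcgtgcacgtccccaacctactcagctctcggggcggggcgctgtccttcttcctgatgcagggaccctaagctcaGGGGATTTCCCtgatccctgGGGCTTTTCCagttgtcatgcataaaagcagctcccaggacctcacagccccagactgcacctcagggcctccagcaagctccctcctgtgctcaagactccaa
Ccl7, chr10:67513845-67514144, plus strand: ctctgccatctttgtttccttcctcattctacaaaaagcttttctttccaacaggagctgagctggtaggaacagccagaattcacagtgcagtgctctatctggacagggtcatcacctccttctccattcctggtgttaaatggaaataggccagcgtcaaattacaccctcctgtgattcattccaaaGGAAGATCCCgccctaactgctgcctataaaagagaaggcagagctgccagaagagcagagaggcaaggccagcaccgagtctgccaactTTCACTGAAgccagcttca
Cxcl9, chr14:16006916-16007215, plus strand: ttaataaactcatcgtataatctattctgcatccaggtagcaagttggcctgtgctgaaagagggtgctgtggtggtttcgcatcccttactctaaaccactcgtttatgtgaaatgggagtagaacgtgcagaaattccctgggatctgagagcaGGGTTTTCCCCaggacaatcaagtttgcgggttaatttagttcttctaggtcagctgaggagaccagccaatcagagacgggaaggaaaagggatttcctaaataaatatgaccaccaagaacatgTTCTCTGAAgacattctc
Cxcl12, chr4:152060531-152060830, plus strand: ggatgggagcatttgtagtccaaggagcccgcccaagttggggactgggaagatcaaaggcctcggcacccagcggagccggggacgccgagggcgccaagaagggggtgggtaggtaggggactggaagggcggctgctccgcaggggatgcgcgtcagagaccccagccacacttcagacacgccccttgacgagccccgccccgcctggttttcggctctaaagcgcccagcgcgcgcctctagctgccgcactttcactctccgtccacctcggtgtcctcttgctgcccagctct
Counted from the start, kappa B matches lie from -103 to -74 in Cxcl1 and from -74 to -45 in Cxcl2. Ccl7 and Cxcl9 hold a kappa B match before the start and a gamma interferon activated site match after it, and the window of Cxcl12 holds none of the 3. The kappa B letters are common. They are in 17 of 28 ligand promoters (60.7%), 4 of 14 receptor promoters (28.6%) and 47.3% of all 33469 promoters of this length. Gamma interferon activated site letters are in 5 ligand promoters (17.9%), 1 receptor promoter (7.14%) and 8.87% of all, and AP-1 letters in 3 (10.7%), 2 (14.3%) and 4.63%. A match describes the letters and is not evidence of a bound site.

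**Figure D2:**
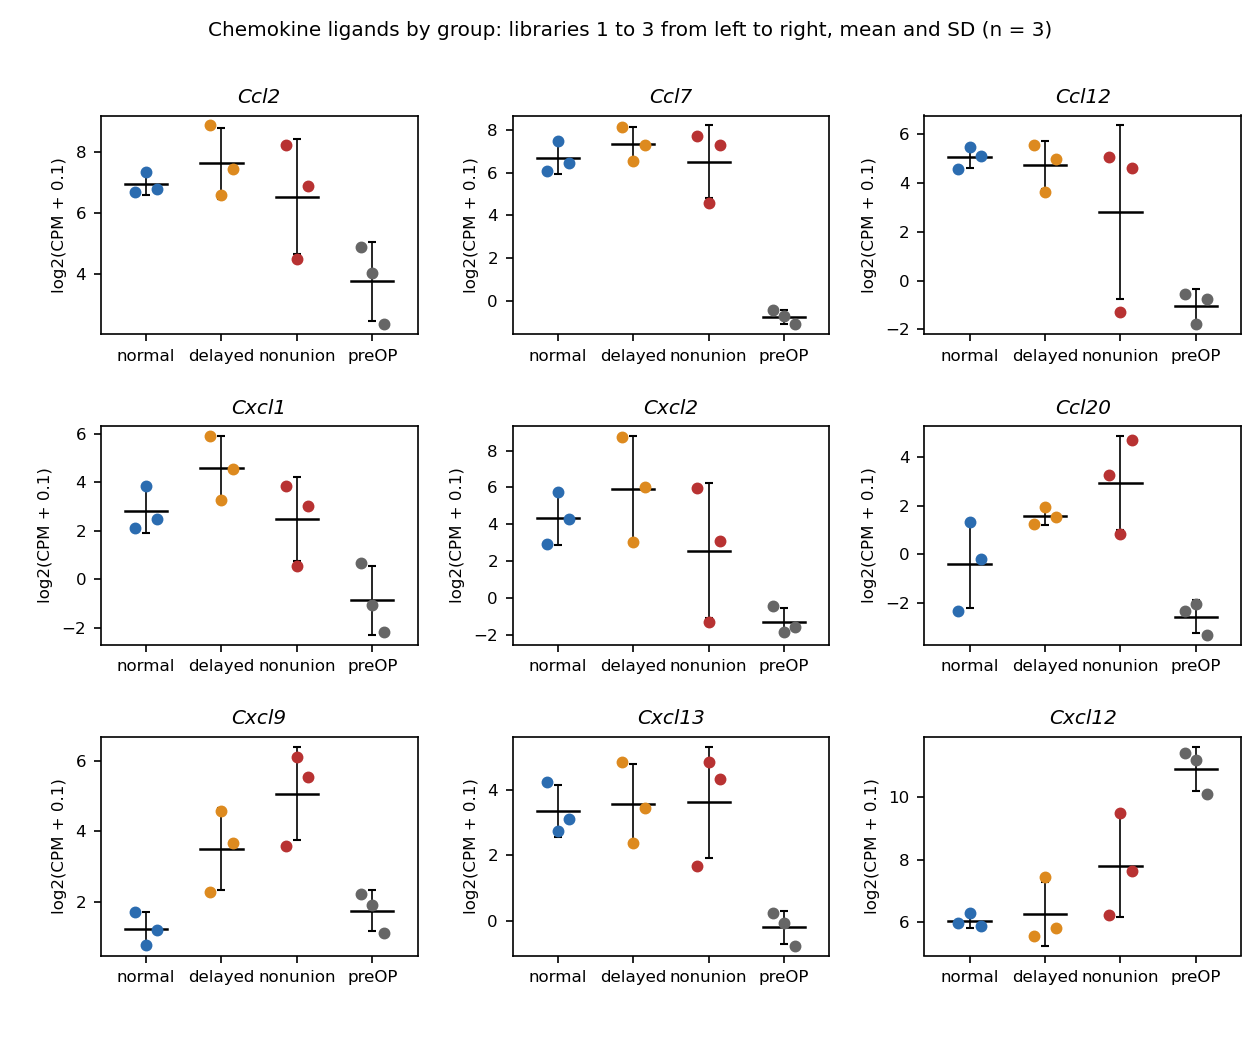
Levels of 9 ligands by group, as log2(CPM + 0.1); points are libraries 1 to 3 from left to right, lines the mean and bars the SD over 3 libraries. Ccl7 in the femur lies under every hematoma, Cxcl12 in the femur lies above every hematoma, and nonunion 2 is the lowest nonunion point for Ccl2, Ccl7, Ccl12, Cxcl1, Cxcl2 and Ccl20.

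Among the ligands of Cxcr3, Cxcl9 was the one member called between hematomas. It was at 3.16, 1.59 and 2.21 CPM in normal, 4.72, 23.9 and 12.6 CPM in delayed, 11.8, 69.5 and 46.3 CPM in nonunion and 4.59, 3.63 and 2.03 CPM in the femur. All nonunion libraries were above all normal and femur libraries, and the delayed libraries overlapped those of nonunion. Against the femur it rose by 3.63 (SE 0.73, edgeR adjusted p = 0.0044) in nonunion, where the call held with any 1 library left out, and by 2.00 (SE 0.68, adjusted p = 0.049) in delayed, where it ended in 5 of 6 such fits (without delayed 2, delayed 3 or any 1 femur library, adjusted p up to 0.162) and without delayed 2 and nonunion 2 together (1.56, adjusted p = 0.068). In normal it differed from the femur by -0.56 (SE 0.68, adjusted p = 0.53).

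Cxcl10, from the same family, was at 9.07, 4.90 and 4.19 CPM in normal, 6.75, 14.7 and 59.1 CPM in delayed, 3.99, 7.24 and 24.2 CPM in nonunion and 3.45, 1.93 and 2.10 CPM in the femur. Every hematoma was above every femur piece. It rose in delayed, by 3.42 (SE 0.87, edgeR adjusted p = 0.014), and that call ended without delayed 3, preOP 2 or preOP 3 (adjusted p up to 0.059, fold changes of 2.19 to 4.08). Its changes of 1.28 (SE 0.82) in normal and 2.24 (SE 0.83) in nonunion were not called, at edgeR adjusted p of 0.23 and 0.066. In nonunion, DESeq2 called it (2.33, adjusted p = 0.014). So did edgeR with the compared groups alone (2.37, adjusted p = 0.047), without nonunion 1 (2.78, adjusted p = 0.039) and without nonunion 2 (2.66, adjusted p = 0.049). In normal, edgeR with the compared groups alone called it (1.36, adjusted p = 0.024). Cxcl11 stayed at or under 2.62 CPM and was not called. T cell markers, 9 of 9 measured, summed to 90.8 to 124 CPM in normal and 83.8 to 122 in the femur, and to 176 to 339 in delayed and 210 to 264 in nonunion. Cd8a and Cd4 made up most of the sum in delayed and nonunion. Against the femur edgeR called Cd8a higher in delayed and nonunion and Cd3g lower in normal and nonunion, and the median log2 fold change of the list was -1.34 in normal, -0.24 in delayed and -1.22 in nonunion. Their part in these results was not tested.

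Cxcl13, which draws B cells through Cxcr5, rose in each kind of hematoma. It was at 18.9, 6.55 and 8.56 CPM in normal, 28.8, 5.05 and 10.9 CPM in delayed, 3.12, 28.7 and 20.2 CPM in nonunion and 1.09, 0.85 and 0.49 CPM in the femur, with no overlap. The log2 fold changes were 3.79 (SE 0.89), 4.19 (SE 0.90) and 4.39 (SE 0.91), with edgeR adjusted p of 0.0062, 0.0060 and 0.0051, and the calls held with any 1 library left out. B cell markers, of which 4 of 6 were measured, went the other way, with a sum of 168 to 241 CPM in the femur and 4.84 to 53.3 CPM in hematomas.

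Cxcl16, a membrane-bound ligand of Cxcr6 that also takes up oxidised lipoprotein, was at 71.5, 49.6 and 47.7 CPM in normal, 52.3, 19.6 and 29.5 CPM in delayed, 32.6, 14.2 and 40.3 CPM in nonunion and 13.7, 12 and 8.57 CPM in the femur. Every hematoma was above every femur piece, nonunion 2 by the least. It rose by 2.30 (SE 0.45, edgeR adjusted p = 0.0023), 1.56 (SE 0.44, adjusted p = 0.021) and 1.35 (SE 0.43, adjusted p = 0.038) on the log2 scale. The call in normal held with any 1 library left out. That in delayed ended without delayed 1, preOP 2 or preOP 3 (1.26 to 2.07, adjusted p up to 0.086), and that in nonunion ended in 5 of 6 such fits (1.14 to 1.83, adjusted p up to 0.134), the fit without nonunion 2 excepted.

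Ccl20, the ligand of Ccr6, which draws dendritic cells and some T cells, was at most 0.14 CPM in the femur. It was at 0.10, 2.39 and 0.77 CPM in normal, 2.26, 3.71 and 2.82 CPM in delayed and 9.41, 1.70 and 25.8 CPM in nonunion. Normal 1 lay within the femur's range and the other 8 hematomas above it. The log2 fold change was 3.57 (SE 1.27, edgeR adjusted p = 0.041) in normal, 5.02 (SE 1.29, adjusted p = 0.014) in delayed and 7.10 (SE 1.36, adjusted p = 0.0034) in nonunion, the last held with any 1 library left out. In normal the call ended in 5 of 6 such fits (2.30 to 4.27, adjusted p up to 0.187), the fit without normal 1 excepted, and in delayed it ended without preOP 3 (adjusted p = 0.055).

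Of the inflammatory CC ligands, Ccl3, Ccl4 and Ccl9 were each called in some comparisons with the femur, and Ccl6 in none. Ccl4 was at 0.85, 2.27 and 1.71 CPM in normal, 17.2, 6.96 and 9.96 CPM in delayed, 15.2, 1.85 and 7.65 CPM in nonunion and 1.33, 1.42 and 1.05 CPM in the femur. Normal overlapped the femur, while delayed and nonunion did not. Ccl4 rose in delayed, by 3.16 (SE 0.69, edgeR adjusted p = 0.0067, held with any 1 library left out), and in nonunion, by 2.71 (SE 0.68, adjusted p = 0.013, ended without preOP 3 at adjusted p = 0.056), and differed by 0.34 (SE 0.66, adjusted p = 0.70) in normal.

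Ccl3, whose reads may be shared with Ccl4, was at 16.2, 50.9 and 24.9 CPM in normal, 399, 27.0 and 65.6 CPM in delayed, 62.9, 8.63 and 24.8 CPM in nonunion and 14.4, 9.96 and 8.08 CPM in the femur. Delayed 1 was far above the other hematomas. Ccl3 rose in delayed, by 3.92 (SE 1.01, edgeR adjusted p = 0.015), a call that ended without delayed 1, preOP 2 or preOP 3 (2.28 to 4.65, adjusted p up to 0.063). Ccl9, a Ccr1 ligand in mice, was at 77.2, 30.5 and 36.9 CPM in normal, 69.6, 20.4 and 18.5 CPM in delayed, 17.8, 5.70 and 14.4 CPM in nonunion and 5.28, 3.87 and 6.04 CPM in the femur. All normal and delayed libraries were above the femur, and nonunion 2 was within its range. Ccl9 rose by 3.25 (SE 0.63, adjusted p = 0.0023) in normal and 2.84 (SE 0.62, adjusted p = 0.0063) in delayed, each held with any 1 library left out, and differed by 1.33 (SE 0.59, adjusted p = 0.12) in nonunion. Without nonunion 2, edgeR called Ccl9 in nonunion (1.83, adjusted p = 0.035). Ccl6, its close relative, was abundant throughout, at 32.6 to 157 CPM in hematomas and 30.9 to 88.9 CPM in the femur, and was not called by edgeR with all libraries. Without delayed 2 and nonunion 2, edgeR called Ccl6 higher in delayed (1.29, adjusted p = 0.024).

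Cxcl12, the marrow retention signal, was lower in every hematoma group. It was at 2724, 2337 and 1094 CPM in the femur, 62.1, 79.0 and 58.7 CPM in normal, 47.1, 172 and 56.0 CPM in delayed and 75.5, 711 and 199 CPM in nonunion. All hematomas lay under all femur pieces, and nonunion 2 was nearest. Cxcl12 fell by 4.95 (SE 0.86, edgeR adjusted p = 0.0014) in normal, 4.48 (SE 0.84, adjusted p = 0.0030) in delayed and 2.64 (SE 0.78, adjusted p = 0.026) in nonunion on the log2 scale. The call in nonunion ended without nonunion 3, preOP 1 or preOP 2 (adjusted p up to 0.084, and fold changes of -3.74 to -2.10 over the fits), while the others held, and it also ended with the compared groups alone in the fit (-2.55, adjusted p = 0.058). Without delayed 2 and nonunion 2 the fold change in nonunion was -3.74 (adjusted p = 0.00055). Stromal markers, 5 of 5 measured and led by collagen genes, summed to 2244 to 3306 CPM in the femur and at least 10022 CPM in every hematoma. Lepr, the list's marker of marrow stromal cells, went the other way, at 98.9, 73.9 and 22.6 CPM in the femur and at most 5.70 CPM in hematomas, and edgeR called it lower in each group. Its part in the Cxcl12 values was not tested.

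Cxcl12 was the one member measured by more than 1 transcript, of 1880, 2850 and 5423 bases. In the femur the transcript of 2850 bases made up 59.8% to 65.3% of the length-scaled level, that of 1880 bases 33.0% to 38.3% and that of 5423 bases 1.71% to 1.96%. In hematomas these shares were 10.4% to 57.2%, 40.3% to 83.8% and 0.83% to 25.1%. The short transcript's share in each hematoma was above that in each femur piece, with 83.8% in nonunion 2 as the highest and 64.7% in nonunion 3 as the next. The split rests on how Salmon assigned reads to overlapping transcripts and was not tested.

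Other ligands were lower in hematoma than in the femur. Xcl1, which draws cross-presenting dendritic cells through Xcr1, was at 1.58, 1.51 and 0.55 CPM in the femur and 0.08 to 0.45 CPM in hematomas, with no overlap. It fell by 1.92 (SE 0.65, edgeR adjusted p = 0.034) in normal, 2.71 (SE 0.68, adjusted p = 0.012) in delayed and 2.21 (SE 0.68, adjusted p = 0.032) in nonunion, and these calls ended in 5, 2 and 4 of 6 fits with 1 library left out, without preOP 1 or preOP 2 in each case (adjusted p up to 0.138, 0.066 and 0.130). Ccl5, a product of T and NK cells that attracts leukocytes, was at 7.11, 8.49 and 5.79 CPM in the femur, 1.30 to 1.65 in normal, 0.52 to 3.76 in delayed and 0.36 to 2.62 in nonunion, all under the femur. It fell by 2.25 (SE 0.79, adjusted p = 0.040) in normal and 2.56 (SE 0.82, adjusted p = 0.038) in nonunion and differed by -2.06 (SE 0.78, adjusted p = 0.073) in delayed. The calls ended in 6 and 5 of 6 fits with 1 library left out, in nonunion all but that without nonunion 2 (adjusted p up to 0.116 and 0.129). In delayed, DESeq2 (-1.92, adjusted p = 0.040) and limma-voom (-2.53, adjusted p = 0.012) called Ccl5. NK and cytotoxic markers, 6 of 6 measured, summed to 87.5 to 140 CPM in the femur and 8.46 to 59.1 CPM in hematomas. Nkg7 led the femur sum, at 61.6 to 92.6 CPM. Of the 6, edgeR called 4 lower in normal, 2 in delayed and 3 in nonunion. Gzmb was not called and overlapped the femur, at 0.32 to 1.96 CPM in hematomas and 0.37 to 1.33 CPM in the femur. Ncr1, one of those called lower in normal, was at 2.65 to 5.38 CPM in the femur. It was above that range in delayed 1, at 15.7 CPM, and in nonunion 2, at 7.09 CPM. The part of these markers in the Xcl1 and Ccl5 falls was not tested.

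Ccl17, a ligand of Ccr4, was at 1.28, 1.51 and 0.49 CPM in the femur and 0.20, 0.15 and 0 CPM in nonunion, with no overlap, where it fell by 3.26 (SE 1.00, edgeR adjusted p = 0.031). That call ended without nonunion 3, preOP 1 or preOP 2 (adjusted p up to 0.109, fold changes of -4.50 to -2.45). Cx3cl1, the membrane-bound ligand of Cx3cr1, was at 4.69, 5.62 and 3.21 CPM in the femur and 0.04, 1.08 and 0.28 CPM in delayed. It fell by 3.29 in delayed (SE 0.87, adjusted p = 0.016), with the call ended without delayed 3 (adjusted p = 0.058), and without delayed 2 and nonunion 2 the fold change was -4.56. In nonunion Cx3cl1 was at 1.86, 7.40 and 4.84 CPM, on both sides of the femur. Ccl11, the eosinophil attractant eotaxin, was at 0.79, 22.2 and 5.75 CPM in nonunion and at most 1.44 CPM in the other 9 libraries. It rose in nonunion by 3.99 (SE 1.03, adjusted p = 0.014), ended without preOP 2 (adjusted p = 0.054) and was missing with limma-voom, and without delayed 2 and nonunion 2 the fold change was 2.64 (adjusted p = 0.019).

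**Figure D3:**
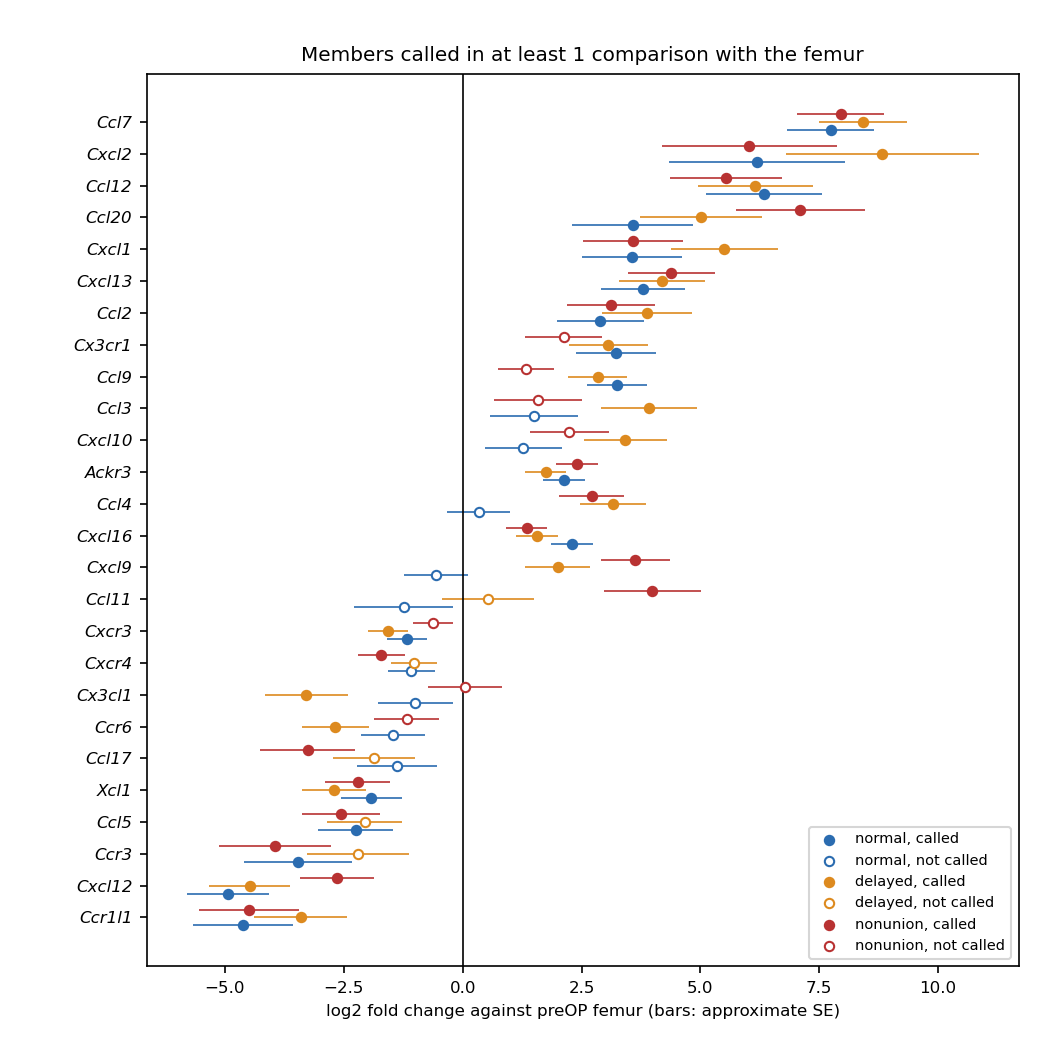
Log2 fold change of each hematoma group against the preOP femur for the 26 members called in at least 1 of the 3 comparisons, with approximate SE as bars; filled points were called and open points were not. Ccl7 is at the top with 7.74 to 8.42, Cxcl2 in delayed is the rightmost point at 8.82, and Cxcl12 and Ccr1l1 lie farthest to the left.

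Between the hematomas, differences were few beside the spread of libraries. In delayed against normal, edgeR called 0 of 26 ligands and 0 of 16 receptors, beside 7.13% of all features (2.68% higher, 4.45% lower). There 7 ligands and 0 receptors had an unadjusted p under 0.05, DESeq2 called 3 members and limma-voom 1. In nonunion against normal, edgeR called 1 ligand, Cxcl9, and 0 receptors, beside 2.37% of all features (0.89% higher, 1.48% lower), with 7 ligands and 0 receptors at an unadjusted p under 0.05, 7 members called by DESeq2 and 0 by limma-voom. In nonunion against delayed, edgeR called 0 members, against 0% of all features, with 6 ligands at an unadjusted p under 0.05, 2 members called by DESeq2 and 0 by limma-voom. The median log2 fold change of ligands was 0.64, 0.32 and -0.38 in the 3 comparisons, that of receptors 0.11, 0.05 and -0.27, and that of all features 0.02, -0.03 and -0.05. Comparisons with normal share the normal libraries.

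In nonunion against normal the Cxcl9 log2 fold change was 4.10 (SE 0.78, edgeR adjusted p = 0.033) and the call held without nonunion 1 and without delayed 2 and nonunion 2 together (3.67, adjusted p = 0.034). In the other 5 fits with 1 library left out, those without normal 1, normal 2, normal 3, nonunion 2 or nonunion 3, the fold change stayed within 3.68 to 4.55 and the adjusted p reached 0.136. Limma-voom (3.64, adjusted p = 0.091) and edgeR with a replicate block (3.66, adjusted p = 0.074) did not call it. In delayed against normal Cxcl9 differed by 2.51 (SE 0.73, edgeR adjusted p = 0.071), and in nonunion against delayed by 1.59 (SE 0.70, adjusted p = 0.70). DESeq2 called Cxcl9 in delayed against normal (2.62, adjusted p = 0.00465).

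Ccl4 was at least 6.96 CPM in delayed and at most 2.27 CPM in normal, with no overlap, and differed by 2.82 (SE 0.75, edgeR adjusted p = 0.056). DESeq2 called this difference (2.89, adjusted p = 0.0012). So did edgeR with the compared groups alone (2.94, adjusted p = 0.031) and with effective lengths as offsets (3.17, adjusted p = 0.043). The Ccl4 difference of 2.32 (SE 0.74, edgeR adjusted p = 0.13) in nonunion against normal rests on groups that overlap at nonunion 2. DESeq2 called it as well (2.39, adjusted p = 0.016). Ccl21, which guides cells into lymph vessels through Ccr7, was at 14.9, 38.4 and 24.3 CPM in normal, 0.15, 1.96 and 0.04 CPM in delayed, 0.32, 26.4 and 0.21 CPM in nonunion and 0.74, 2.03 and 3.95 CPM in the femur. Normal was above every other library but nonunion 2, and yet the difference of -5.24 (SE 1.92) in delayed against normal had an edgeR adjusted p of 0.13. DESeq2 (-5.13, adjusted p = 0.031), limma-voom (-6.52, adjusted p = 0.035) and the replicate block (-7.14, adjusted p = 0.043) called it. Without delayed 2 and nonunion 2, delayed against normal gave 6 called members, beside 2076 of 12627 features in place of 889 of 12474. These were Ccl21 at -7.90 (adjusted p = 0.0025), Cx3cl1 at -3.70 (0.027), Ccl4 at 3.15 (0.010), Ccl3 at 2.98 (0.038), Ccl6 at 1.78 (0.010) and Cxcl1. In nonunion against normal the same fit called 3, which were Cxcl9, Ccl4 at 2.84 (0.030) and Ccl21 at -6.58 (0.0054), where all 9 hematomas gave -1.65 (SE 1.63, adjusted p = 0.61). Against the femur, Ccl21 in nonunion turned from 1.96 (SE 1.58, adjusted p = 0.39) to -2.89 (adjusted p = 0.014) when these libraries were left out. Endothelial markers, 6 of 6 measured, summed to 348 to 410 CPM in normal, 54.5 to 272 in delayed and 286 to 1202 in nonunion, and their part in the Ccl21 values was not tested.

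Further ligands with an unadjusted p under 0.05 between hematomas were not called by edgeR, while DESeq2 called some of them. Ccl11 differed by 5.16 (SE 1.16, edgeR adjusted p = 0.054) in nonunion against normal, where the groups did not overlap, and by 3.41 (SE 1.05, adjusted p = 0.53) against delayed. Ccl20 differed by 3.50 (SE 1.12) in nonunion against normal, Cxcl17 by 2.42 (SE 0.78), Cxcl12 by 2.23 (SE 0.77) and Ccl9 by -1.99 (SE 0.66), with adjusted p from 0.125 to 0.153. DESeq2 called Ccl11 (adjusted p = 1.85e-05), Ccl20 (0.0079), Cxcl12 (0.030), Ccl9 (0.044) and Cxcl17 (0.0498) in nonunion against normal. Without delayed 2 and nonunion 2 the Cxcl12 difference was 1.07. Cx3cl1 differed by 3.30 (SE 0.96, adjusted p = 0.47) in nonunion against delayed, and Ccl3 by -2.40 (SE 1.03, adjusted p = 0.69). In that comparison DESeq2 called Ccl11 (adjusted p = 0.034) and Cx3cl1 (0.021).

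Single libraries set many of the extremes. Of the 23 ligands with a mean of at least 1 CPM over the hematomas, delayed 1 was the highest of the 9 hematomas for 11 (47.8%), and of 13 such receptors for 7 (53.8%), against 11% of 11815 features. Nonunion 2 was the lowest for 9 of the ligands (39.1%), against 23.2% of features, and the highest for 6 ligands (26.1%) and 4 receptors (30.8%), against 20.9%. These shares describe the libraries and were not tested.

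Per transcript length, where levels of different genes can be set beside each other, the make-up of the ligand transcripts differed between femur and hematoma. Cxcl12 made up 58.9% to 60.7% of the summed ligand level in the femur and 0.48% to 6.54% in the hematomas except nonunion 2, where it made up 22.7%. Ccl6 took 24.8% to 29.5% in the femur and 13.9% to 45.5% in hematomas. These shares rest on effective lengths, which differed between the normal files and the others. Ccl6, for one, was at 32.6 CPM and 172 CPM per kilobase in normal 2. In delayed 2 it was at 39.9 CPM and 294 CPM per kilobase. How far the lengths shape the shares was not tested. Ccl2 took 15.1% to 27.3% and Ccl7 11.3% to 22.6% in hematomas other than nonunion 2, where each took 2.4%, and in the femur these shares were at most 2.66% and 0.078%. Ccl12 took 3.47% to 10.4% outside nonunion 2 and at most 0.19% in the femur. The summed ligand level per length, as CPM per kilobase, was 868 to 4304 in hematomas and 797 to 1974 in the femur, so the totals overlapped. Without Cxcl12 it was 845 to 4283 in hematomas and 323 to 811 in the femur, with no overlap.

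**Figure D4:**
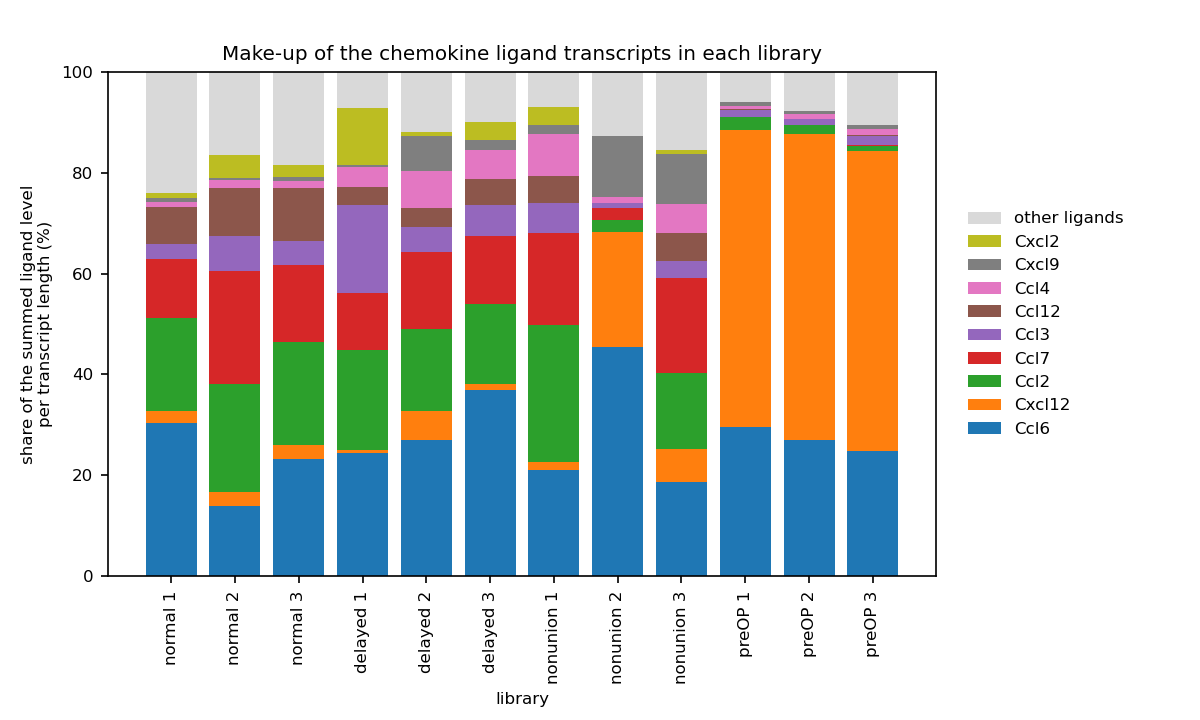
Share of each of 9 ligands in the summed ligand level per transcript length (percent), by library; grey is all other ligands. Cxcl12 fills 58.9% to 60.7% of the femur bars, and Ccl2 and Ccl7 fill much of the hematoma bars except that of nonunion 2.

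Among receptors, Cxcr4, the receptor of Cxcl12, had the largest share per length in the femur, 46.0% to 66.0%, against 18.2% to 42.0% in hematomas. It stood at 201, 203 and 223 CPM in the femur, 114, 98.9 and 83.7 CPM in normal, 182, 41.0 and 85.3 CPM in delayed and 81.2, 29.1 and 81.0 CPM in nonunion. All hematomas were under all femur pieces. Cxcr4 fell in nonunion by 1.71 (SE 0.50, edgeR adjusted p = 0.026). That call ended in all 6 fits with 1 library left out (adjusted p up to 0.088). Its differences of -1.08 (SE 0.49) in normal and -1.02 (SE 0.49) in delayed had edgeR adjusted p of 0.10 and 0.15. In normal, edgeR called Cxcr4 lower with the compared groups alone (-0.998, adjusted p = 0.0031). It also did so without delayed 2 and nonunion 2 (-0.952, adjusted p = 0.0086). In delayed, edgeR called Cxcr4 lower without delayed 1 (-1.55, adjusted p = 0.045). DESeq2 and limma-voom called Cxcr4 in neither group. Ackr3, the atypical receptor that clears Cxcl12, moved the opposite way, with 8.98, 9.20 and 6.23 CPM in the femur, 37.8, 33.2 and 35.7 CPM in normal, 14.0, 41.8 and 26.3 CPM in delayed and 27.1, 68.9 and 33.8 CPM in nonunion. Every hematoma was above every femur piece. It rose by 2.13 (SE 0.44, adjusted p = 0.0031), 1.75 (SE 0.43, adjusted p = 0.012) and 2.40 (SE 0.44, adjusted p = 0.0027), and of these calls that in delayed ended without preOP 3 (adjusted p = 0.054).

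Cx3cr1, carried by patrolling monocytes and macrophages, was at 2.71, 2.64 and 1.85 CPM in the femur, 30.0, 7.90 and 29.5 CPM in normal, 41.9, 7.74 and 10.9 CPM in delayed and 20.7, 3.08 and 7.32 CPM in nonunion. Every hematoma was above every femur piece, nonunion 2 narrowly. It rose by 3.22 (SE 0.84, edgeR adjusted p = 0.011) in normal, held with any 1 library left out, and by 3.07 (SE 0.83, adjusted p = 0.019) in delayed, where the call ended without delayed 1 or any 1 femur library (2.10 to 3.68, adjusted p up to 0.076), and differed by 2.12 (SE 0.81, adjusted p = 0.073) in nonunion. In nonunion, DESeq2 (2.20, adjusted p = 0.018) and edgeR without nonunion 2 (2.69, adjusted p = 0.025) called it.

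The receptors called lower were mostly of low level in hematoma. Ccr1l1, a Ccr1-like gene whose reads may be shared with Ccr1, was at 15.0, 12.7 and 7.89 CPM in the femur and at most 2.49 CPM in hematomas. It fell by 4.62 (SE 1.05, edgeR adjusted p = 0.0053), 3.41 (SE 0.98, adjusted p = 0.024) and 4.50 (SE 1.06, adjusted p = 0.0094), and the call in delayed ended without delayed 3, preOP 1 or preOP 2 (adjusted p up to 0.101, fold changes of -4.60 to -2.63). Ccr3, the eotaxin receptor of eosinophils, was at 11.7, 10.8 and 5.73 CPM in the femur and at most 4.72 CPM in hematomas, without overlap. It fell by 3.46 (SE 1.14, adjusted p = 0.030) in normal and 3.95 (SE 1.18, adjusted p = 0.028) in nonunion, and differed by -2.20 (SE 1.07, adjusted p = 0.15) in delayed. Both calls ended in 4 of 6 fits with 1 library left out, those without preOP 1, preOP 2 and numbers 2 and 3 of the hematoma group (adjusted p up to 0.090 and 0.103). In delayed, limma-voom (-3.07, adjusted p = 0.029) and edgeR with the replicate block (-3.15, adjusted p = 0.031) called Ccr3.

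Cxcr3, the receptor of Cxcl9 on activated lymphocytes, was at 3.50, 4.20 and 3.27 CPM in the femur, 1.31 to 1.84 in normal, 0.72 to 1.92 in delayed and 2.15 to 2.62 in nonunion, all under the femur. It fell by 1.18 (SE 0.42, edgeR adjusted p = 0.041) in normal and 1.58 (SE 0.42, adjusted p = 0.017) in delayed and differed by -0.62 (SE 0.41, adjusted p = 0.29) in nonunion. The call in normal ended in all 6 fits with 1 library left out, and that in delayed in 4, those without delayed 2, delayed 3, preOP 1 or preOP 2 (adjusted p up to 0.181 and 0.114). Ccr6, the Ccl20 receptor, was at 2.07, 0.61 and 1.17 CPM in the femur and 0.31, 0.15 and 0.12 CPM in delayed, where it fell by 2.68 (SE 0.71, adjusted p = 0.017), a call that ended without delayed 2, delayed 3 or preOP 1 (adjusted p up to 0.096).

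**Figure D5:**
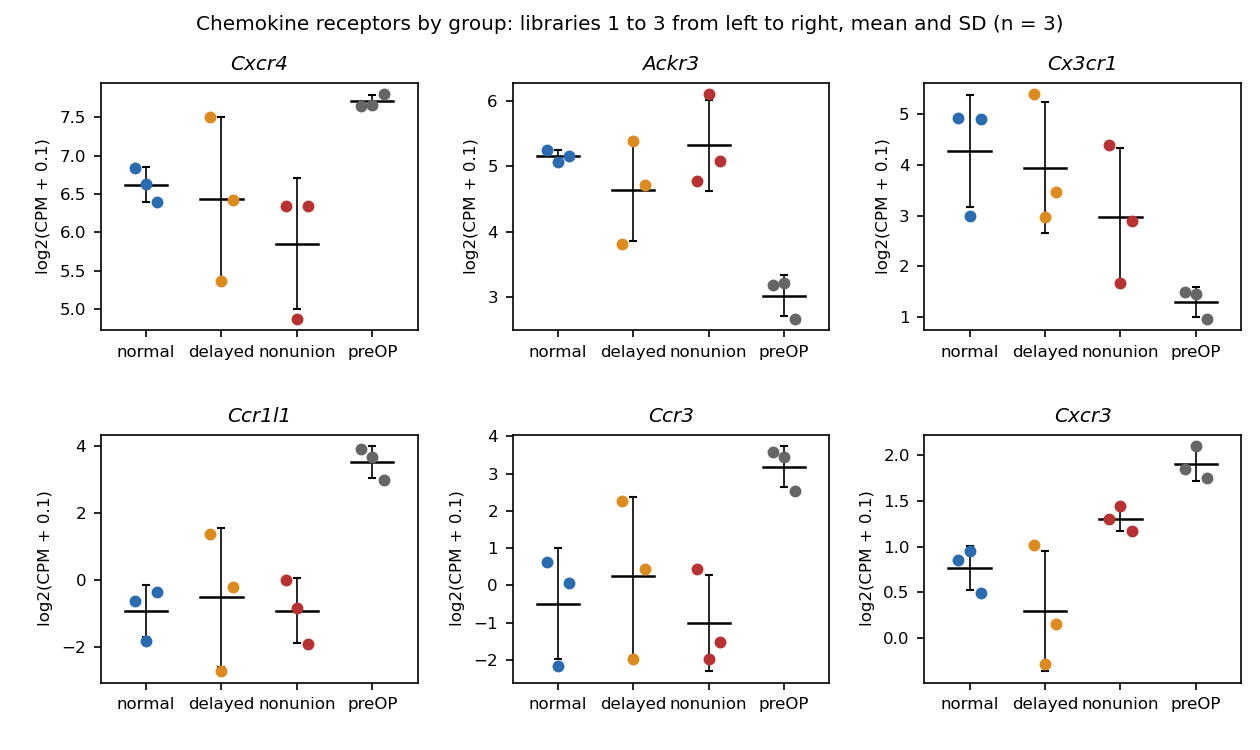
Levels of 6 receptors by group, as log2(CPM + 0.1); points are libraries 1 to 3 from left to right, lines the mean and bars the SD over 3 libraries. Ackr3 and Cx3cr1 lie above the femur in every hematoma, and Cxcr4, Ccr1l1, Ccr3 and Cxcr3 lie under it.

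In the main edgeR fits, of the 9 hematomas or of all 12 libraries without a block, the receptors of the Ccl2 and Cxcl1 groups of ligands were not called. Ccr2, which binds Ccl2, Ccl7 and Ccl12, was at 8.51 to 19.4 CPM in the femur, 1.59 to 20.4 in normal, 7.27 to 13.5 in delayed and 2.93 to 36.7 in nonunion, and its log2 fold changes of -0.16 (SE 0.96), -0.59 (SE 0.97) and 0.03 (SE 0.96) had edgeR adjusted p of 0.69 to 0.99. Cxcr2, which binds Cxcl1 and Cxcl2, was at 17.3 to 42.5 CPM in the femur, 1.10 to 29.0 in normal, 0.46 to 12.9 in delayed and 0.74 to 22 in nonunion, and differed by -1.42 (SE 1.30), -2.67 (SE 1.36) and -1.75 (SE 1.32). With standard errors of this size, differences of 1 log2 unit were not detectable for Ccr2 or Cxcr2. EdgeR with a replicate block called Cxcr2 in delayed against the femur (-3.55, adjusted p = 0.044). Ccr1, a receptor of Ccl3 and Ccl5, took 6.94% to 35.6% of the summed receptor level per length in hematomas. It was at 11.9 to 171 CPM in hematomas and 27.4 to 53.5 CPM in the femur, overlapped and was not called by edgeR with all libraries. EdgeR with the compared groups alone called Ccr1 higher in normal (0.99, adjusted p = 0.017). Without delayed 2 and nonunion 2, edgeR called it higher in delayed (1.67, adjusted p = 0.040). Ccr7, Ccr9, Cxcr5 and Xcr1 stayed at or under 10.8 CPM in every library and were not called in the main edgeR fits. DESeq2 called Ccr9 in normal (-1.23, adjusted p = 0.036) and Ccr7 in delayed (1.67, adjusted p = 0.045) against the femur, and limma-voom called Ccr9 in normal (-1.29, adjusted p = 0.041). EdgeR with the compared groups alone called Ccr9 (-1.22, adjusted p = 0.0077) and Cxcr5 (-1.38, adjusted p = 0.020) in normal. Without delayed 2, edgeR called Ccr7 in delayed (2.20, adjusted p = 0.014). Ackr2, which clears inflammatory CC chemokines, was at 7.55 CPM in nonunion 2 and at most 0.57 CPM elsewhere and was not tested.

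The remaining ligands above 1 CPM were not called in the main edgeR fits. Ccl24, an eosinophil attractant, was at 4.26 to 32.2 CPM in hematomas and 9.92 to 14.6 CPM in the femur, and Cxcl14 at 9.11 to 38.1 CPM and 18.6 to 40.7 CPM. In delayed against the femur Cxcl14 was called by DESeq2 (-1.41, adjusted p = 0.035), limma-voom (-1.50, adjusted p = 0.048), the replicate block (-1.48, adjusted p = 0.031) and the compared groups alone (-1.33, adjusted p = 0.027). Ccl28 and Cxcl17, both known from mucosal surfaces, stayed at or under 3.85 and 2.47 CPM. In normal against the femur, edgeR called Cxcl17 with the replicate block (-1.82, adjusted p = 0.048) and the compared groups alone (-1.70, adjusted p = 0.010).

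Other genes of chemokine signalling were listed apart from the members. Of 24 genes of signal transduction 20 were measured, and between hematomas edgeR, DESeq2 and limma-voom each called 0, with 2 at an unadjusted p under 0.05 in delayed against normal and 0 in the other comparisons. Against the femur, 4 were called higher and 4 lower in normal, 1 higher and 3 lower in delayed, and 2 higher and 3 lower in nonunion. Of all features, 42.6%, 28.2% and 28.4% were called, so the list's shares were at or under the background. The G protein subunit Gnb1 was at 167 to 274 CPM in hematomas and 107 to 136 CPM in the femur. The receptor-silencing genes Arrb2 and Grk6, an arrestin and a receptor kinase, were at 43.1 to 119 and 46.7 to 121 CPM in hematomas and 181 to 248 and 176 to 220 CPM in the femur. Both were among those called lower in each group.

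Of 11 other chemoattractants and their receptors edgeR called 0 between hematomas, with 3 at an unadjusted p under 0.05 in each comparison. DESeq2 called 4 in delayed and 4 in nonunion against normal, and limma-voom called 1 in delayed against normal. Against the femur 4 were called higher and 4 lower in normal, and 2 higher and 5 lower in delayed and in nonunion, beside 42.6%, 28.2% and 28.4% of all features called in either direction. Ppbp, a platelet CXC chemokine, was at 340 to 440 CPM in the femur and 0.21 to 26.1 CPM in hematomas. Pf4, another platelet CXC chemokine, was at 301 to 429 CPM in the femur and 258, 400 and 210 CPM in normal. EdgeR did not call Pf4 in normal (-0.38, SE 0.53, adjusted p = 0.59). It was called lower in delayed (-1.63, adjusted p = 0.044) and nonunion (-2.58, adjusted p = 0.0064). Cmklr1, the receptor of chemerin, was at 5.58 to 5.80 CPM in the femur and 22.9 to 56.3 CPM in hematomas. Megakaryocyte markers, 3 of 5 measured, summed to 160 to 239 CPM in the femur and at most 45 CPM in hematomas, where Gp1bb was without reads in delayed and nonunion, and their part in the Ppbp and Pf4 values was not tested.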

How the data were processed

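RNA was measured in 9 hematoma and 3 femur libraries. Per the submitters' processing notes, the authors used bcl2fastq 1.8.4, FastQC, Trimmomatic and Salmon with build rn6, and for the rest of the versions and settings the sources used here give none. Per the file headers, the deposited values are estimated counts (reads per RefSeq transcript, not scaled), TPM (after division by effective length) and lengths in bases. The tests made no use of the deposited TPM, and the deposited effective lengths served for levels per length and in 1 alternative.

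Estimated counts of 18321 transcripts were summed by symbol and rounded; 954 transcripts without a symbol stayed as features of their own. Depth was 16808993 to 24325162 estimated reads per library. A value of 0 allows up to 3 reads, or 0.12 to 0.46 CPM, for counting error only. Features passing filterByExpr were tested with edgeR 4.0.16 (TMM, two-sided quasi-likelihood F-test, R 4.3.3) in a fit of 9 hematomas (12474 features, 6 residual degrees of freedom) or of all 12 libraries (12846 features, 8 residual degrees of freedom), with Benjamini-Hochberg adjustment over all features and calls at an adjusted p below 0.05. The SE is approximate, taken as the size of the log2 fold change over the square root of F. CPM are on the TMM scale of all 12 libraries. The scripts were tested on simulated data.

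The members, marker lists, signalling lists and motifs were chosen with earlier results of these data known. Values are given for every member called in any comparison and for others with a group mean of at least 1 CPM, except 1 receptor that is counted but not reported here. Members were to be ordered by the Glu-Leu-Arg class read from the protein; no protein sequence was used here, so the class follows textbook naming. Alternatives were DESeq2 1.42.0, its size factors in edgeR, limma-voom (limma 3.58.1), no filter, a replicate block, the compared groups alone, ribosomal RNA left out, effective lengths as offsets, delayed 2 and nonunion 2 left out, and each library left out in turn.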

Additional observations from a re-analysis of the deposited data

How the results depend on the processing

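The number of called members moved by more than 1.5 times under these settings. In delayed against normal (0 called), a replicate block gave 1, DESeq2 3, limma-voom 1, the compared groups alone 1, effective lengths as offsets 1, and leaving out delayed 2 and nonunion 2 gave 6. In nonunion against normal (1 called), the replicate block gave 0, DESeq2 7, limma-voom 0 and leaving out delayed 2 and nonunion 2 gave 3, and leaving out 1 library gave 0 to 2. In nonunion against delayed (0 called), DESeq2 gave 2. Leaving out 1 library gave 9 to 14 calls in normal against the femur (17 called), 13 to 20 in delayed (21 called) and 8 to 20 in nonunion (19 called). Over all features it gave 3952 to 4846 (5466 called), 2292 to 4033 (3622 called) and 2338 to 4221 (3648 called). The cause was not tested. Single calls ended under some settings too, and some settings added calls. Limma-voom missed 11, with adjusted p of 0.0517 to 0.266 (Cxcl2 in all 3 comparisons with the femur, Ccl20 in normal, Cxcl9, Cxcl10 and Cx3cr1 in delayed, Ccl11, Ccl12 and Cxcl1 in nonunion, and Cxcl9 in nonunion against normal). The compared groups alone missed 4 at 0.0527 to 0.0716 (Ccr1l1 in delayed and Ccl2, Cxcl12 and Xcl1 in nonunion), and DESeq2 size factors, no filter and no ribosomal RNA each missed Cxcr3 in normal. No member's direction reversed among the called members and the uncalled ones with an unadjusted p under 0.05 in any setting run. Outside these, Ccl21 in nonunion against the femur turned from 1.96 to -2.89 without delayed 2 and nonunion 2. Over all features, delayed against normal had 889 calls, and 433 with the block, 1996 with DESeq2 and 2076 without delayed 2 and nonunion 2; nonunion against normal had 296, 148, 1272 and 429, and nonunion against delayed 0, 0, 181 and 60. Same-numbered deviations correlated at -0.18 to 0.19 and not above 0.1 in every pair. With 3 libraries per group and no animal labels, these values cannot decide whether replicate numbers pair the libraries. Femur and nonunion libraries in particular may share animals. The block gave 15, 24 and 17 calls against the femur, and 7 calls (Ccl5, Ccl20 and Cxcr3 in normal, Cxcl9 in delayed, Ccl5 and Xcl1 in nonunion, and Cxcl9 in nonunion against normal) were absent from it, at adjusted p of 0.0503 to 0.0926. Low members are limited by depth, most of all in nonunion 2, where 3 reads are 0.46 CPM.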
